A study of Mus musculus with 12 samples.

Results

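The genes described here encode the machinery that carries out regulated exocytosis, the SNARE proteins, the synaptotagmins and the proteins that prime, clamp or take apart SNARE complexes. They were taken by name from the annotation of the array platform, as every gene with 1 symbol that belongs to the Syt, Stx, Vamp, Exoc, Unc13, Rims, Sytl, Stxbp, Cplx or Cadps families, together with Snap23, Snap25, Snap29, Nsf, Napa, Napb, Napg, Scgn and Doc2b. This gave 77 genes with 163 probe sets, out of 15964 genes measured. No intensity entered this choice. RNA came from 4 populations of MIN6, a β-cell line from an insulinoma of a mouse that carries the SV40 T antigen as a transgene in its islet β cells, so that every population carries it. The high-passage parental cells (Pr-HP, passages 35 to 40) had lost glucose-stimulated insulin secretion (GSIS), while the clone 4 cells at passages 40 to 50 (C4-HP), those at passages 17 to 20 (C4-LP) and the low-passage parental cells (Pr-LP, passages 17 to 20) had kept it and are called the responder cells. Clone 4 is a single subclone of the low-passage parental cells, and all populations were grown in the same way, without a treatment. Each population has 1 array for each chip, named A, B or C, of the Affymetrix murine U74 version 2 design, so that the 12 arrays hold no replicate of any population.

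In a β cell, insulin granules fuse with the plasma membrane when the vesicle SNARE on the granule zips together with syntaxin and SNAP-25 on the target membrane. Munc18 and Munc13 proteins prepare these complexes, complexins bind the assembled bundle and both clamp and promote fusion, and synaptotagmins with other calcium-binding proteins couple fusion to the entry of calcium. After fusion, the ATPase NSF and its SNAP adaptors take the complexes apart for another round.

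The values are intensities of probe sets on a linear scale, as deposited. They carry no unit in common between probe sets, so levels were compared between populations and never between genes. For the test, values were put on the log2 scale after those under the 20th percentile of a chip (67.3 units for chip A, 58.6 for B and 29.1 for C) had been raised to it. A probe set was tested if at least 1 of its 4 arrays exceeded the 40th percentile of the chip, which kept 117 of the 163 probe sets. A gene is represented by its probe set with the highest mean over the 4 populations, and in 64 of the 77 genes that probe set was tested. These 64 are called the genes tested. Array medians were 214 to 216 for chip A, 162 to 163 for B and 92.5 to 92.9 for C. Markers of β cells were present in every population, and 9 of the 10 measured were within 2-fold between Pr-HP and the responder cells. Ins2, for insulin, read between 14771 and 15526 in the 4 populations, signals that may lie beyond the linear range of the array and give no comparison. Ins1 was not analysed here. Of the other cell types, the summed intensity of the 3 alpha-cell markers measured stood at 10842 in Pr-HP cells against 985 to 6391 in the responder cells. Glucagon made up 10552 of it in Pr-HP cells, while Ttr (248 against 435 to 3135) and Irx2 (42.3 against 47.5 to 81.9) were lowest there. The sum of the 5 duct markers was 3962 in Pr-HP cells against 2612 to 3256, and Car2 alone set this direction (1831 against 131 to 162), as Krt7 was lowest in Pr-HP (1235 against 1564 to 2085) and Krt19, Cftr and Sox9 lay within the range of the responder cells. The sum of the 5 macrophage markers was 2030 in Pr-HP cells against 436 to 443, through Cd68, while the defining macrophage markers Ptprc and Lyz2 were under the floor in all 4 populations. The sums of the acinar, fibroblast, endothelial, and delta and PP cell markers in Pr-HP cells were within 2-fold of each responder population. As a sign of RNA quality, the 3′ over 5′ signal of Gapdh on chip A was 0.867 in Pr-HP cells against 0.968 to 1.05 in the responder cells, and Pr-HP had the lowest such value for Gapdh on chips B and C also (0.953 against 1.01 to 1.09, and 1.16 against 1.19 to 1.31). The Actb value was also lowest in Pr-HP for chips A (1.15 against 1.25 to 1.43) and B (1.28 against 1.39 to 1.42), but within the responder range on chip C (1.34 against 1.30 to 1.42). The part of these differences in the values below was not tested. In such bulk RNA, fewer cells that express a gene and less RNA per cell cannot be told apart.

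The first comparison asked which exocytosis genes differed between the cells without GSIS and those with it. Scgn, for the calcium-binding protein secretagogin, Cplx2, for the SNARE-binding protein complexin 2, and Syt2, for a calcium-sensing synaptotagmin, were the only 3 of the 64 genes tested that lay at least 2-fold lower in Pr-HP than in the responder cells with a higher side of 100 units or more, and none lay 2-fold higher. Vamp8, for a vesicle SNARE of endosomes and secretory granules also called endobrevin, came nearest to that limit on the high side. Among all probe sets tested, 0.861% were past 2-fold lower and 1.24% past 2-fold higher. Limma, which compares Pr-HP with the mean of the 3 responder populations and takes the error from the spread between them, called none of the 64 genes lower, against 0.0171% of all probe sets, and none higher, against 0.0643%. An unadjusted limma p under 0.05 was reached by 10 of the 64 genes, or 15.6%, against 9.79% of all probe sets tested. The median log2 difference of the 64 genes was -0.02, and that of all probe sets tested -0.00159. Since the responder cells are 3 different populations and not repeats of one, the error in this test holds the differences between clones and passages, and Pr-HP, with its 1 array a chip, is assumed to vary as they do.

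The intensity of Scgn was 464 in Pr-HP cells, against 2009 in C4-HP, 1082 in C4-LP and 4283 in Pr-LP cells. Pr-HP was the lowest of the 4, but the responder cells themselves spread widely, with a mean of 2458 ± 1647 (SD, n = 3 populations). The log2 difference was -2.18 ± 0.77 (SE), a 4.54-fold lower level, with an adjusted p of 0.49 by limma. Scgn has 1 probe set on these chips, so no other probe set could be set beside it.

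Cplx2 gave 545 in Pr-HP cells, against 2003 in C4-HP, 1672 in C4-LP and 1881 in Pr-LP cells. Here the 3 responder populations were close together, with a mean of 1852 ± 167 (SD, n = 3 populations), and Pr-HP stood far under all of them. The log2 difference was -1.76 ± 0.14 (SE), a 3.39-fold lower level, with an adjusted p of 0.0779 by limma, the lowest of the 64 genes. The other 2 probe sets of Cplx2 ran the same way with smaller differences. Their readings in Pr-HP were 272 and 224, against 541 to 627 and 331 to 347 in the responder cells, and their log2 differences were -1.08 and -0.60 with adjusted p-values of 0.161 and 0.259 by limma. Complexins 1 and 3, which bind the same SNARE bundle, differed little. Cplx1 read 873 in Pr-HP cells, against 864, 882 and 906 in C4-HP, C4-LP and Pr-LP cells, and Cplx3 read 287 against 334, 321 and 312 in the same order.

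Syt2 read 179 in Pr-HP cells, against 431 in C4-HP, 452 in C4-LP and 297 in Pr-LP cells. Pr-HP was below all 3 responder populations (mean 394 ± 84.0, SD, n = 3 populations), and Pr-LP lay between Pr-HP and the clone 4 cells. The log2 difference was -1.11 ± 0.29 (SE), or 2.16-fold, with an adjusted p of 0.401 by limma. Syt7, for a high-affinity calcium sensor of insulin granules, differed by less but with the responder cells almost at 1 level, at 647 in Pr-HP cells against 958 in C4-HP, 971 in C4-LP and 1002 in Pr-LP cells. Its log2 difference was -0.59 ± 0.08 (SE), with an adjusted p of 0.179 by limma. All 4 of its probe sets were lower in Pr-HP, but by unequal amounts, with log2 differences of -1.65, -0.59, -0.26 and -0.21. The probe set with the difference of -1.65 read 191 in Pr-HP cells, against 550 in C4-HP, 559 in C4-LP and 696 in Pr-LP cells, with an adjusted p of 0.0992 by limma. Syt9, for another calcium-binding synaptotagmin, was also lowest in Pr-HP cells, with 92.3 against 146 in C4-HP, 185 in C4-LP and 138 in Pr-LP cells. Its log2 difference was -0.75 ± 0.20 (SE), with an adjusted p of 0.408 by limma. The size of this difference depended on the floor, and was -0.35 with the floor at the 40th percentile.

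Vamp8 was 3905 in Pr-HP cells, against 1981 in C4-HP, 1806 in C4-LP and 2146 in Pr-LP cells. The 3 responder populations were close (mean 1978 ± 170, SD, n = 3 populations) and Pr-HP lay above all of them. The log2 difference was 0.99 ± 0.14 (SE), or 1.98-fold, with an adjusted p of 0.219 by limma. Its other probe set read 1012 in Pr-HP cells, against 492, 468 and 460 in C4-HP, C4-LP and Pr-LP cells, with a log2 difference of 1.10 and an adjusted p of 0.126 by limma. Both Vamp8 probe sets are of the class that holds probes shared with related sequences, so a share of the signal from another transcript cannot be told apart. The other genes with an unadjusted limma p under 0.05 were Exoc5 at the low side, and Exoc6, Stxbp2 and Stx12 at the high side, of which Exoc5, Exoc6 and Stx12 were picked for description after their values had been seen. Stx12, for a syntaxin of endosomes, gave 2827 in Pr-HP cells, against 2270 in C4-HP, 2054 in C4-LP and 1908 in Pr-LP cells. Stxbp2, for the syntaxin-binding protein Munc18-2, read 869 in Pr-HP cells, against 668 in C4-HP, 605 in C4-LP and 664 in Pr-LP cells, a log2 difference of 0.43 ± 0.12 (SE) with an adjusted p of 0.421 by limma. Its other tested probe set had a log2 difference of 0.07. Exoc5 and Exoc6, for subunits of the exocyst complex that tethers vesicles, had log2 differences of -0.45 and 0.43. The 3 tested probe sets of Exoc5 ran from -0.45 to 0.005 and differed in sign. The tested probe sets of Exoc6 ran from 0.43 to 0.54 and those of Stx12 from 0.27 to 0.45.

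**Figure D1:**
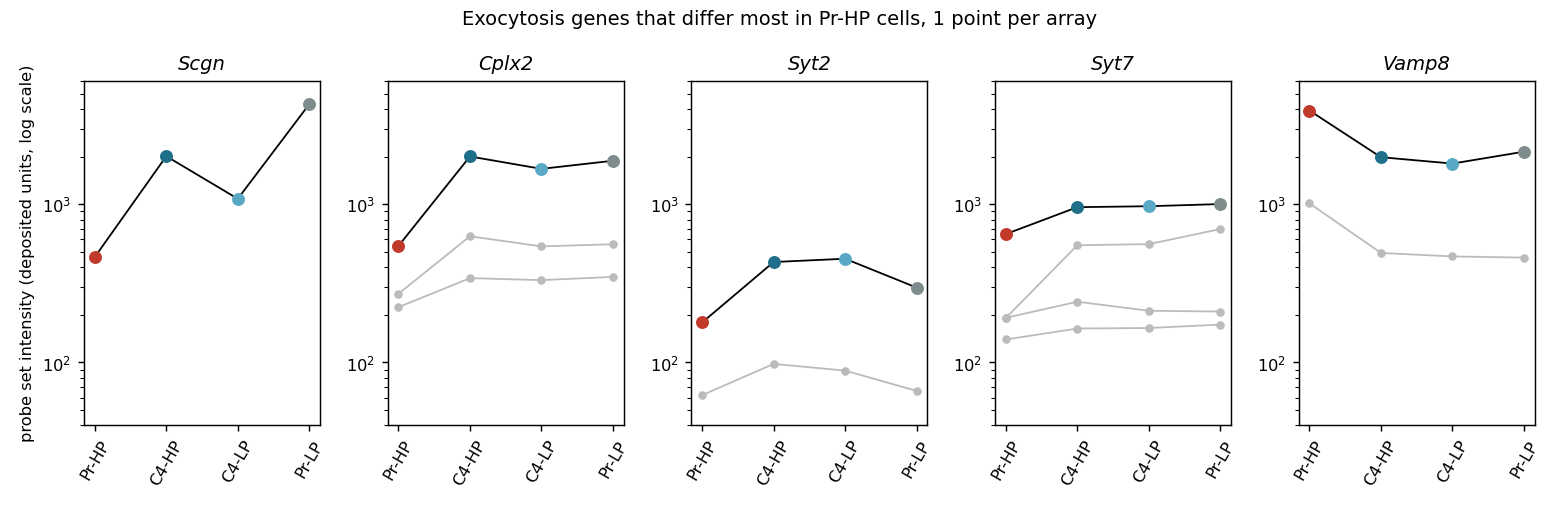
Intensity of each probe set (deposited units, log scale) in the 4 populations, 1 point per array, for Scgn, Cplx2, Syt2, Syt7 and Vamp8. Coloured points joined by black lines are the probe set that represents the gene and grey lines its other probe sets. Pr-HP is the lowest population for Scgn (464), Cplx2 (545), Syt2 (179) and Syt7 (647) and the highest for Vamp8 (3905).

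The promoters of Cplx2, Scgn and Vamp8 are shown because Scgn and Cplx2 had the largest differences to the low side in Pr-HP cells and Vamp8 the largest to the high side. Each runs 5′ to 3′ from 250 bases before to 50 bases after the annotated start (RefSeq, GRCm38.p6), at chr13:54302306-54302605 on the plus strand for Cplx2, chr13:23991165-23991464 on the minus strand for Scgn and chr6:72390618-72390917 on the minus strand for Vamp8. Capitals mark matches to the motifs searched on both strands.
Cplx2: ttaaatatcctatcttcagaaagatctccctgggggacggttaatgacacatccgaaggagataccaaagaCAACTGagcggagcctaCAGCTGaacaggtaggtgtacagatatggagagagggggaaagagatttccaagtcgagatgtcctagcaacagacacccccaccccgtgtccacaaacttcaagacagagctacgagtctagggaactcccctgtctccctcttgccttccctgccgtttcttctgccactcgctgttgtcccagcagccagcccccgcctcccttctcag
Scgn: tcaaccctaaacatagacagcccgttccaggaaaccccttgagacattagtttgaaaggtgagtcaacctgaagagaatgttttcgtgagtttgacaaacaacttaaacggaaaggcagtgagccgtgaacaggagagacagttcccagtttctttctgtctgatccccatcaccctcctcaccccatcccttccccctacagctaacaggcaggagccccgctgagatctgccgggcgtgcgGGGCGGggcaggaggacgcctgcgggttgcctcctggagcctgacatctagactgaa
Vamp8: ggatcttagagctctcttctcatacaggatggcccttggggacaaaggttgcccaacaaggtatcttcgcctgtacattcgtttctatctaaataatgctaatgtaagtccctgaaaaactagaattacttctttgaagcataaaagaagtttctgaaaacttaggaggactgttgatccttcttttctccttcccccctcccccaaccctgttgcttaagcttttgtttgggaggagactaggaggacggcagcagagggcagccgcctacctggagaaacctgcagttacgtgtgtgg
The letters searched were those of the E-box (CANNTG), the GC box (GGGCGG), the cAMP response element (TGACGTCA), the TATA box (TATAAA) and part of the site of the repressor REST (TTCAGCACC). Cplx2 had 2 E-boxes, Scgn had 1 GC box and Vamp8 had no match, and no matches overlapped. An E-box is found in 72.3% of the 32851 promoters of this length in the table, a GC box in 35.7%, a TATA box in 13.6%, a cAMP response element in 1.79% and the REST letters in 0.371%. Of the 77 genes, 61 had a promoter in the table. Among these 61 promoters, 41 held an E-box, 40 a GC box, 2 a cAMP response element, 1 a TATA box and 1 the REST letters. The number of CG dinucleotides was 9 in Cplx2, 11 in Scgn and 5 in Vamp8, beside a median of 7 over all promoters. These matches describe the letters only, since the arrays hold no measure of a factor at these sites.

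Pr-HP was below all 3 responder populations for 17 of the 64 genes, or 26.6%, against 28.2% of all probe sets tested, and above all 3 for 13 genes, or 20.3%, against 29.5%. Neither share was above that over all probe sets. By role, the synaptotagmins with Doc2b and Scgn, not all of which bind calcium, held 8 of the 17 genes below the range, out of 14 tested. The SNAREs, the largest group, held 8 of the 13 above it, out of 23 tested, and had 3 below it. Over all probe sets the shares were 28.2% below and 29.5% above, and no share by role was tested. Of the 14 genes tested among the synaptotagmins, Doc2b and Scgn, only Syt13 was above the range. It read 2819 in Pr-HP cells, against 2295 in C4-HP, 2797 in C4-LP and 2147 in Pr-LP cells, a margin over C4-LP that a single array cannot resolve. Syt3, for a plasma membrane synaptotagmin, was below the range with 651 in Pr-HP cells, against 695, 794 and 747 in C4-HP, C4-LP and Pr-LP cells. Syt1, the calcium sensor of fast release in neurons, and Syt11, which does not bind calcium, were within the range in Pr-HP cells, at 226 against 210 to 311 and at 1701 against 1536 to 1718. Doc2b, another calcium sensor with C2 domains, was within it too, at 218 against 149 to 227.

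None of the SNAREs of insulin granules was past 2-fold between Pr-HP and the responder cells, but Snap25 and Vamp2 varied widely among the responder cells. Snap25, for the plasma membrane SNARE that supplies a pair of helices to the complex, read 853 in Pr-HP cells, against 745 in C4-HP, 1262 in C4-LP and 442 in Pr-LP cells, and Vamp2, for the vesicle SNARE of insulin granules, 1663 against 2029, 2699 and 1329 in the same order. Their log2 differences were 0.19 with a 95% interval from -1.57 to 1.96 and -0.22 with one from -1.44 to 0.996. Stx1a, for the plasma membrane syntaxin of docked granules, read 197 in Pr-HP cells, against 189 in C4-HP, 155 in C4-LP and 228 in Pr-LP cells. Stx4a, the symbol used here for syntaxin 4, read 333 against 305, 269 and 318 in the same order, and Stx3, for a syntaxin of newcomer granules, 481 against 480, 434 and 551. Snap23, for the relative of SNAP-25 outside neurons, read 189 in Pr-HP cells against 187 to 252 in the responder cells, and Vamp3, for cellubrevin, 268 against 243 to 360. The 95% intervals of the log2 differences ran from -0.64 to 0.77 for Stx1a, from -0.23 to 0.57 for Stx4a, from -0.48 to 0.45 for Stx3, from -0.75 to 0.45 for Snap23 and from -0.85 to 0.58 for Vamp3. Over the 23 SNARE genes tested the log2 differences ran from -0.35 to 0.99, with 7 negative and 16 positive. Over all probe sets tested, 11762 were negative and 11578 positive. Genes read on the same arrays are not separate repeats, and the sign count was not tested. All 23 were within 2-fold.

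Genes for the other steps showed no difference of 2-fold in this comparison. The 4 genes of SNARE disassembly, Nsf, Napa, Napb and Napg, had log2 differences between -0.12 and 0.04 in their representing probe sets. In these, Pr-HP was inside the range of the responder cells for each gene. The other tested probe set of Napa was below the range, at 289 in Pr-HP cells against 328 to 568 in the responder cells. Its log2 difference was -0.53, and that of the other Nsf probe set was -0.22. Nsf, for the ATPase itself, read 2308 in Pr-HP cells, against 2174 in C4-HP, 2786 in C4-LP and 2326 in Pr-LP cells. The 5 priming and active zone genes tested ran from -0.32 for Unc13a, for the priming protein Munc13-1, to 0.07 for Rims2, for a scaffold that binds Rab3, and Pr-HP was inside the range for each of them. Cadps, for the priming protein CAPS1, read 395 in Pr-HP cells, against 325 in C4-HP, 562 in C4-LP and 488 in Pr-LP cells. Stxbp5, for tomosyn, which competes for syntaxin and SNAP-25, was below the range at 267 in Pr-HP cells against 308 to 359 in the responder cells, a log2 difference of -0.35 ± 0.14 (SE) with an adjusted p of 0.55 by limma. Over its 4 tested probe sets the log2 differences ran from -0.45 to -0.007. The 10 exocyst genes tested ran from -0.45 to 0.43, with 4 negative and 6 positive.

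**Figure D2:**
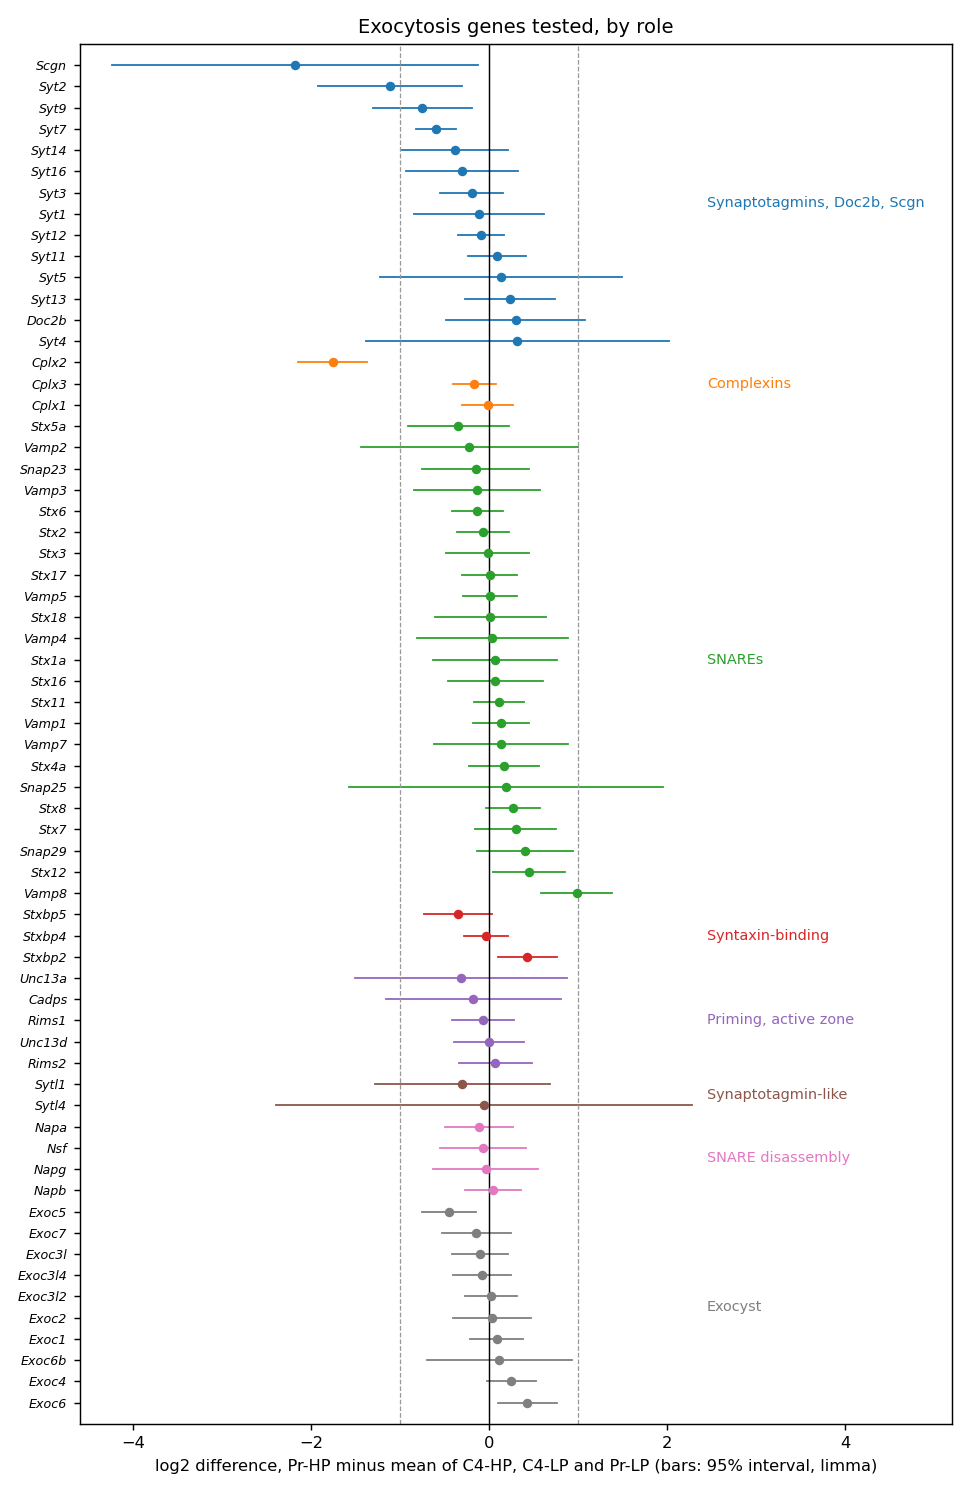
Log2 difference between Pr-HP and the mean of C4-HP, C4-LP and Pr-LP for each of the 64 genes tested, grouped by role, with the 95% interval from limma as a bar and 2-fold in either direction as dashed lines. Scgn, Cplx2 and Syt2 lie left of the line at -1 and no gene lies right of the line at 1.

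Where a gene had several tested probe sets, these could be set against each other. Of 36 such genes, 25 had the same sign of the log2 difference in every probe set, and in 33 the probe sets differed by less than 0.5. The 3 with a wider range were Syt7 (1.44), Cplx2 (1.16) and Syt11 (0.52), and in Syt11 the sign differed between probe sets. The 13 genes whose representing probe set was not tested were Syt6, Syt8, Syt10, Syt17, Sytl2, Stxbp3, Stxbp5l, Stxbp6, Exoc3, Exoc8, Unc13b, Unc13c and Cadps2, and 6 of them were under the floor in all 4 populations. Syt6 had another probe set that was tested, with a log2 difference of -0.09. Stxbp3, for Munc18c, the partner of syntaxin 4, read 138 in Pr-HP cells, against 113 in C4-HP, 61.9 in C4-LP and 139.6 in Pr-LP cells. Its value in C4-LP was under the floor, and no reading passed the 40th percentile of chip A. Unc13b, for Munc13-2, was under the floor in all 4 populations and Cadps2, for CAPS2, read between 47.8 and 53.6.

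Parental cells at high and low passage were then compared as single arrays, without a test. Scgn and Cplx2 were 9.23-fold and 3.45-fold lower in Pr-HP than in Pr-LP cells, which makes 2 of the 64 genes past 2-fold lower, against 1.37% of all probe sets. Syt4, for a synaptotagmin of secretory granules, was the 1 gene past 2-fold higher, against 1.74% of all probe sets, at 3423 in Pr-HP cells and 1609 in Pr-LP cells, a 2.13-fold ratio. Its other tested probe set ran the same way, with 220 in Pr-HP cells and 56.9 in Pr-LP cells. Snap25 was 1.93-fold higher, Vamp8 1.82-fold and Syt5 1.74-fold, all under the limit. Cplx2 was near 1 level in all 3 responder populations, while Syt4, Snap25 and Syt5 were lowest in Pr-LP cells among all 4.

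Clone 4 cells at high and low passage differed in few of these genes. Sytl4, for granuphilin, a Rab27 effector that docks insulin granules at the plasma membrane, was 3.08-fold higher in C4-HP than in C4-LP cells and was the 1 gene past 2-fold higher, against 0.39% of all probe sets. None was past 2-fold lower, against 0.891%. Sytl4 read 915 in Pr-HP, 1315 in C4-HP, 427 in C4-LP and 1539 in Pr-LP cells, so that C4-LP was the low one of the 4. The other probe set of Sytl4 gave 815, 1103, 434 and 1321 in the same order. The probe set that represents Sytl4 is of a class with probes shared between transcripts. Scgn was 1.86-fold higher in C4-HP than in C4-LP cells. Lower in C4-HP but under the limit were Syt4 (1.93-fold), Cadps (1.73-fold), Sytl1 (1.71-fold) and Snap25 (1.69-fold). Sytl1, for another Rab27 effector, was picked for description after its values had been seen, and read 333 in Pr-HP, 348 in C4-HP, 595 in C4-LP and 333 in Pr-LP cells. Cplx2 and Syt7 were 1.20-fold and 0.99-fold of their C4-LP level in C4-HP cells.

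**Figure D3:**
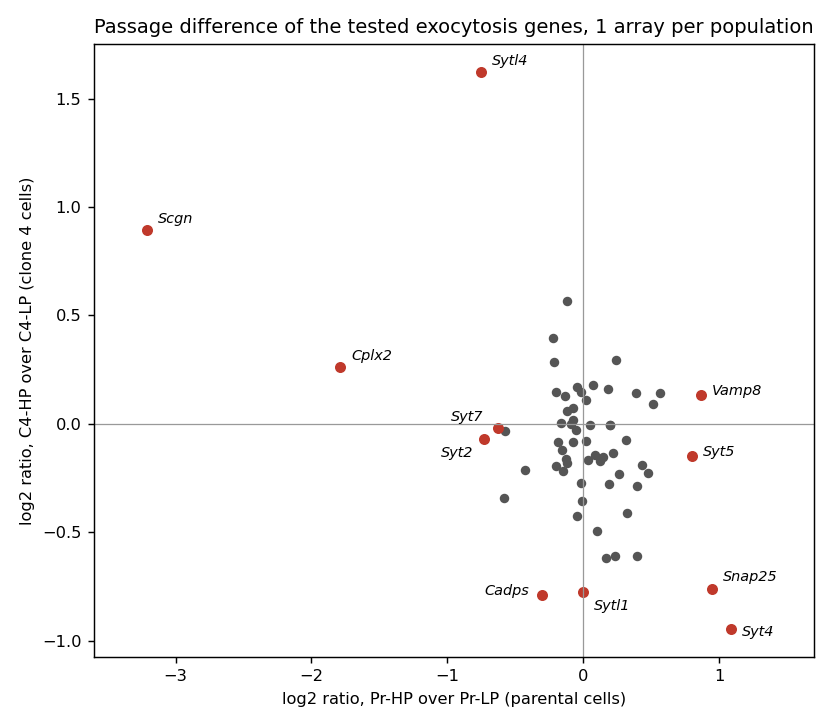
Log2 ratio of high to low passage in parental cells (Pr-HP over Pr-LP, horizontal) and in clone 4 cells (C4-HP over C4-LP, vertical) for the 64 genes tested, each ratio from 2 single arrays. Named genes are in red. Scgn (-3.21 and 0.89) and Sytl4 (-0.75 and 1.62) lie at the upper left and Syt4 (1.09 and -0.95) and Snap25 (0.95 and -0.76) at the lower right, while Cplx2 (-1.79 and 0.26) differs mainly along the horizontal axis.

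At low passage, clone 4 and parental cells differed past 2-fold in more of these genes than high and low passage did in parental or in clone 4 cells. Syt4, Snap25, Syt5, Unc13a and Vamp2 were past 2-fold higher in C4-LP than in Pr-LP cells, 5 of 64 genes or 7.81%, against 1.66% of all probe sets. Scgn and Sytl4 were past 2-fold lower, 2 of 64 genes or 3.12%, against 0.938% of all probe sets. These ratios are between 2 single arrays and share the Pr-LP arrays with the comparison of Pr-HP and Pr-LP. Syt4 read 4983 in C4-LP and 1609 in Pr-LP cells, a 3.10-fold ratio, with Pr-HP (3423) and C4-HP (2586) between them. Its other tested probe set read 243 in C4-LP and 56.9 in Pr-LP cells. Snap25 read 1262 in C4-LP and 442 in Pr-LP cells, a 2.86-fold ratio, again with Pr-HP (853) and C4-HP (745) between them. Syt5 read 2130 in C4-LP and 1017 in Pr-LP cells, a 2.09-fold ratio, and here Pr-HP (1767) and C4-HP (1920) were nearer to C4-LP.

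Unc13a read 345 in C4-LP and 168 in Pr-LP cells, a 2.06-fold ratio, with 189 in Pr-HP and 225 in C4-HP cells. Vamp2 read 2699 in C4-LP and 1329 in Pr-LP cells, a 2.03-fold ratio, with 1663 in Pr-HP and 2029 in C4-HP cells. Its other probe set ran the same way at 309 in C4-LP and 197 in Pr-LP cells, under 2-fold. Sytl4 was 3.61-fold lower and Scgn 3.96-fold lower in C4-LP than in Pr-LP cells. Stx1a, the SNARE partner of Snap25 and Vamp2, ran the other way from them, with 155 in C4-LP and 228 in Pr-LP cells.

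**Figure D4:**
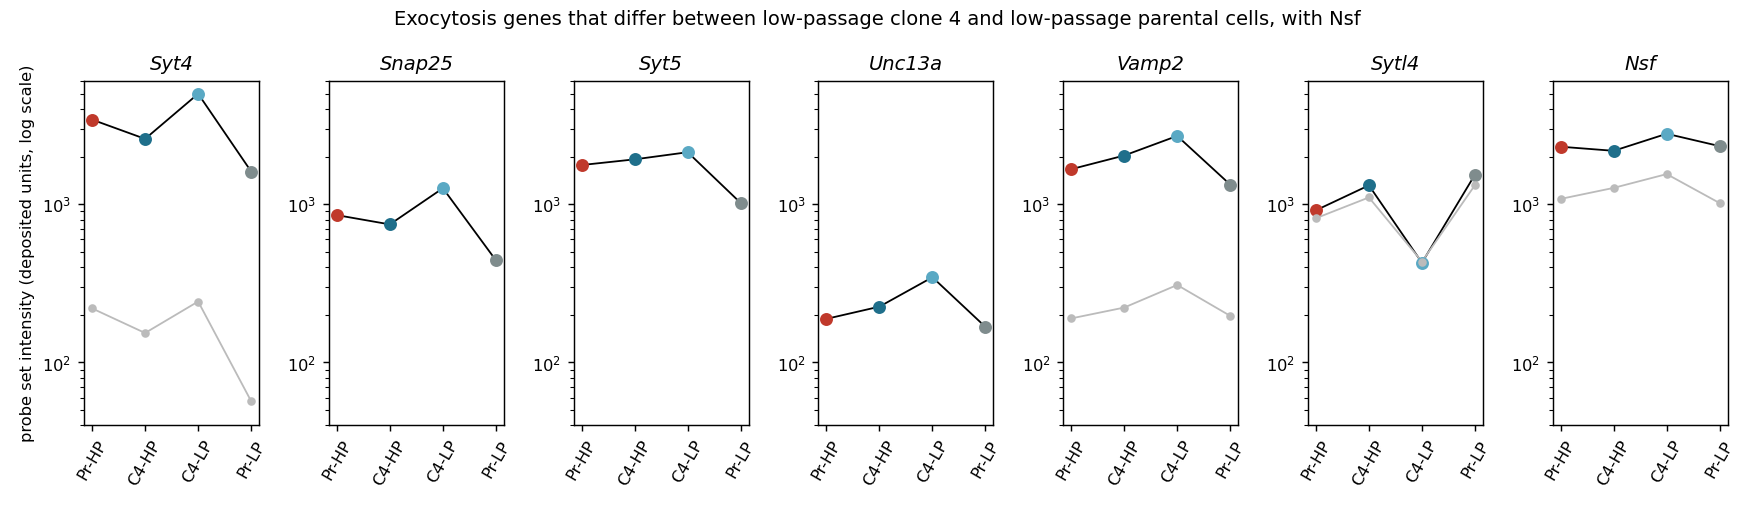
Intensity of each probe set (deposited units, log scale) in the 4 populations, 1 point per array, for Syt4, Snap25, Syt5, Unc13a, Vamp2, Sytl4 and Nsf. Coloured points joined by black lines are the probe set that represents the gene and grey lines its other probe sets, without those under the floor in all populations. C4-LP is the highest population for each gene but Sytl4, where it is the lowest at 427.

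C4-LP was the highest of the 4 populations for 26 of the 64 genes, or 40.6%, against 22.8% of all probe sets, and Pr-LP was the lowest for 17, or 26.6%, against 26.9%. These 2 counts were defined after the values of Syt4, Snap25 and Vamp2 had been seen, and describe these arrays only. By their representing probe sets, the 26 genes held all 4 genes of SNARE disassembly and 4 of the 5 priming and active zone genes. They also held 9 of the 14 genes tested among the synaptotagmins, Doc2b and Scgn, and 8 of the 23 SNAREs. None of the complexins, the exocyst or the syntaxin-binding genes was among them. Nsf and Napg, for the ATPase and its gamma adaptor, were 1.20-fold and 1.39-fold higher in C4-LP than in Pr-LP cells, and Napa and Napb, for the other adaptors, 1.04-fold and 1.05-fold, differences that single arrays cannot resolve. The other tested probe sets of Nsf and Napg ran the same way, at 1.53-fold and 1.30-fold. That of Napa ran the opposite way, with 387 in C4-LP cells and 568 in Pr-LP cells, its highest population.

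Across the 4 populations the ratio of the highest to the lowest value had a median of 1.37 over the 64 genes, and of 1.21 over all probe sets tested. It reached 2-fold in 11 genes, or 17.2%, against 6.64% of all probe sets. In order of this ratio these were Scgn (9.23), Cplx2 (3.67), Sytl4 (3.61), Syt4 (3.10), Snap25 (2.86), Syt2 (2.53), Vamp8 (2.16), Syt5 (2.09), Unc13a (2.06), Vamp2 (2.03) and Syt9 (2.01). In 4 of these 11 genes, Cplx2, Syt2, Syt9 and Scgn, Pr-HP was the lowest population. In Vamp8 it was the highest, and in the other 6 it lay between the responder populations.

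For context, 72 other genes of the secretory pathway were measured, the Rab3 and Rab27 proteins and their effectors, further SNAREs, synaptic vesicle proteins, active zone proteins and calcium channel subunits, and 69 of them were tested. Limma called none. Of the 69, 4 were past 2-fold lower in Pr-HP than in the responder cells, Esyt1, Cacna2d1, Cacna1c and Sec22b, against 0.861% of all probe sets. Past 2-fold higher was 1, Rab3c, against 1.24%. With the mean over the tested probe sets of a gene, 0 were lower and 0 higher, so these counts rest on the representing probe sets. Cacna1c, for a pore subunit of the L-type calcium channel, read 191 in Pr-HP cells, against 371 in C4-HP, 362 in C4-LP and 441 in Pr-LP cells. Its log2 difference was -1.03 ± 0.14 (SE), with an adjusted p of 0.172 by limma. This probe set is of a class with probes shared between transcripts, and the paper lists it under the RIKEN gene D930026N18Rik. Whether the reading is that of Cacna1c therefore cannot be told. Cacna2d1, for an auxiliary subunit of these channels, read 375 in Pr-HP cells, against 726, 743 and 868 in C4-HP, C4-LP and Pr-LP cells. Rab3c, for a small GTPase of secretory vesicles, read 208 in Pr-HP cells, against 97.0, 91.5 and 89.6 in the same order, with a log2 difference of 1.16 ± 0.09 (SE) and an adjusted p of 0.059 by limma. Rab27a, the GTPase to which Sytl4 binds, read 1098 in Pr-HP cells, against 1319, 1238 and 1556, and Rab3a read 508 against 510.1, 532 and 516.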

How the data were processed

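Total RNA of the 4 populations was hybridised by the authors to Affymetrix murine U74 version 2 chips and read with GeneChip 5.1 software. The deposited values are linear intensities, 1 for each probe set and array, and how they were summarised and normalized was not given in the sources at hand. Controls (198 probe sets) were left out. Probe sets were named from the platform annotation, and Unc13 was taken without a following digit, since Unc13a would otherwise be missed. Limma 3.58.1 under R 4.3.3 (lmFit, eBayes) was run within each chip on log2 intensity over 23340 probe sets, with Benjamini-Hochberg adjustment over the 3 chips and a threshold of 0.05, leaving 2 residual degrees of freedom. The fit was also run on simulated data with independent noise for each array. Such data lack the differences between clones and passages, so they do not show which real changes the test would find. Past 2-fold means a log2 difference of at least 1 in size with the higher side at 100 units or more. Named were Cplx2, Syt7, Scgn and Vamp8, the genes past 2-fold and a core list of fusion genes, and the text says where a gene was added. Genes and lists were chosen with earlier results of these data known. Each array stands for 1 culture, and their number limits the precision. Alternatives were 2 other floors, quantile normalization, no filter, each responder population left out, a block for clone 4 against parental cells and the mean over probe sets.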

Additional observations from a re-analysis of the deposited data

Results flagged for a closer look

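In 4 genes the passage difference ran in opposite directions in parental and clone 4 cells, by at least 1.5-fold in both. Each direction rests on 1 array a side, and the difference between parental and clone 4 cells was not tested. For Scgn the log2 ratio was -3.21 for Pr-HP over Pr-LP and 0.89 for C4-HP over C4-LP. For Sytl4 it was -0.75 in parental cells and 1.62 in clone 4 cells. Snap25 ran the other way round, with 0.95 in parental cells and -0.76 in clone 4 cells, as did Syt4, with 1.09 and -0.95. The minimum of 1.5-fold was set after the values had been seen, and at 2-fold in both no gene would have been named. Such opposite differences were found in 6.25% of the 64 genes, against 1.26% of all probe sets tested, which is a description of these arrays. No group had the 4 samples needed to look for a sample far from the rest.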

How the results depend on the processing

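No gene was called by limma under any alternative, while the calls over all probe sets went from 0 to 108. The count past 2-fold lower in Pr-HP stayed at 3 with each responder population left out, and came to 2 with the block, where Syt2 (-0.73) dropped under the limit. The higher count was 1 in place of 0 with the block for clone 4 against parental cells and with the mean over probe sets, and 0 to 1 when a responder population was left out. With the block, which rests on Pr-HP against Pr-LP and leaves 1 residual degree of freedom, the gene past 2-fold was Syt4 (1.09), and with the mean over probe sets and without Pr-LP it was Vamp8 (1.04 and 1.05). Pr-HP was below the responder range in 20 to 25 genes and above it in 14 to 23 when 1 population was left out, since fewer populations make a narrower range. Of the other exocytosis genes, 1 to 4 were lower and 1 to 2 higher without 1 population. With the mean over probe sets 0 were lower and 0 higher, and with the floor at 1.0 unit 2 were higher. With the mean over probe sets, 2 genes were past 2-fold higher in Pr-HP than in Pr-LP and 1 was lower in C4-HP than in C4-LP. Under quantile normalization 3 were higher in C4-LP than in Pr-LP, as Syt5 (0.99) and Vamp2 (0.94) dropped under the limit. The signs of several log2 differences near 0 turned. When 1 responder population was left out, the difference ran from -0.18 to 0.57 for Snap25, from -0.49 to 0.018 for Vamp2, from -0.27 to 0.011 for Vamp3, from -0.075 to 0.21 for Stx1a, from -0.098 to 0.075 for Stx3, from -0.21 to 0.068 for Syt1, from -0.069 to 0.75 for Syt4, from -0.19 to 0.34 for Syt5, from -0.034 to 1.76e-05 for Cplx1, from -0.0020 to 0.14 for Rims2, from -0.64 to 0.29 for Sytl4, from -0.14 to 0.037 for Nsf, from -0.0012 to 0.083 for Napb and from -0.15 to 0.085 for Napg. With the block it was 0.32 for Vamp2, -0.21 for Stx1a, 0.10 for Syt1, 0.17 for Unc13a and 0.19 for Napg, and with the mean over probe sets -0.028 for Syt11. The cause was not tested. Cplx2, Scgn, Syt2 and Syt7 stayed lower and Vamp8 higher in Pr-HP under each alternative, with log2 differences from -1.83 to -1.15, -3.21 to -1.67, -1.30 to -0.73, -0.68 to -0.56 and 0.86 to 1.05 and adjusted p-values by limma no lower than 0.075, 0.215, 0.22, 0.146 and 0.209.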
